A study of Homo sapiens with 6 samples.

Results

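The polyamine genes described here are 10 genes of polyamine synthesis and catabolism: the synthesis enzymes ODC1, AMD1, SRM and SMS, the antizyme regulators OAZ2 and AZIN1, the acetyltransferases SAT1 and SAT2, and the oxidases SMOX and PAOX. They were chosen around the large rise of SAT1 after treatment, and a gene entered when a probe set carried its symbol alone in the platform annotation. All 10 were measured, each by 1 probe set, among 18417 genes in all. Because the choice rests on the same contrast, the members' values and calls are a description. No p-value is given for them, and they are not evidence for a change of the pathway.

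RNA of MDA-MB-231 cells, an established line from a triple-negative breast cancer, was hybridised to Affymetrix arrays. The DMSO vehicle group and the group given YW3-56 at 10 µM for 8 h had 3 arrays each; the labels give no separate time for the vehicle. YW3-56 is known as an inhibitor of peptidylarginine deiminases, which turn protein arginine into citrulline. Both groups were of the same line in serum-containing medium, the labels call the replicates biological, and the results are those of 1 line at 1 dose and 1 time.

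Polyamines are small, positively charged molecules that bind nucleic acids and are needed for growth. ODC1 makes putrescine from ornithine, AMD1 supplies the aminopropyl donor from S-adenosylmethionine, SRM converts putrescine to spermidine, and SMS converts spermidine to spermine. Antizymes such as OAZ2 bind ODC1 and target it for degradation, while AZIN1, an inactive relative of ODC1, binds antizymes. SAT1 acetylates spermidine and spermine, which are then exported or oxidised back by PAOX, and SMOX oxidises spermine directly. Many of these proteins turn over fast and are also controlled by translation, which RNA levels do not show.

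The deposited RMA values are log2 expression, so a difference of 1 is a doubling. Arrays of a group correlated at 0.990 to 0.997 over genes and arrays of different groups at 0.980 to 0.985. Group means of the 5 measured mesenchymal markers of the line (VIM, CD44, AXL, MSN and ANXA1) lay between 13.08 and 13.77. Of the hormone receptor and luminal markers, ESR1, PGR and CDH1 had group means from 5.90 to 6.82, against array medians over all probe sets of 7.55 to 7.74; ERBB2, GATA3 and EPCAM lay between 7.20 and 9.17, and GATA3 was called lower (-0.37). Of 8 leukocyte, endothelial and erythroid markers 6 were measured, with group means from 5.20 to 7.09, and their summed log2 values ran from 37.50 to 39.45 in DMSO and from 38.64 to 38.85 in YW3-56. HBB was the one called, at 6.64 in DMSO and 7.01 in YW3-56, and its part in the results was not tested.

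In the fit over all genes (limma, called at a Benjamini-Hochberg adjusted p under 0.05), 5 of the 10 members were called. SAT1, SAT2 and AZIN1 were higher and ODC1 and AMD1 lower in YW3-56, while SRM, SMS, OAZ2, SMOX and PAOX were not called. The count was 3 without DMSO replicate 2, DMSO replicate 3 or YW3-56 replicate 1. With array weights, or with genes under the median left out, it was 7. Among all genes 21.4% were called, with 9.84% higher and 11.5% lower. The arrays of both groups did not overlap for 7 members, against 36.9% of all genes. The median difference over the 10 members was -0.01, and over all genes it was -0.05. In bulk RNA a change in every cell and a larger change in some cells cannot be told apart.

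**Figure D1:**
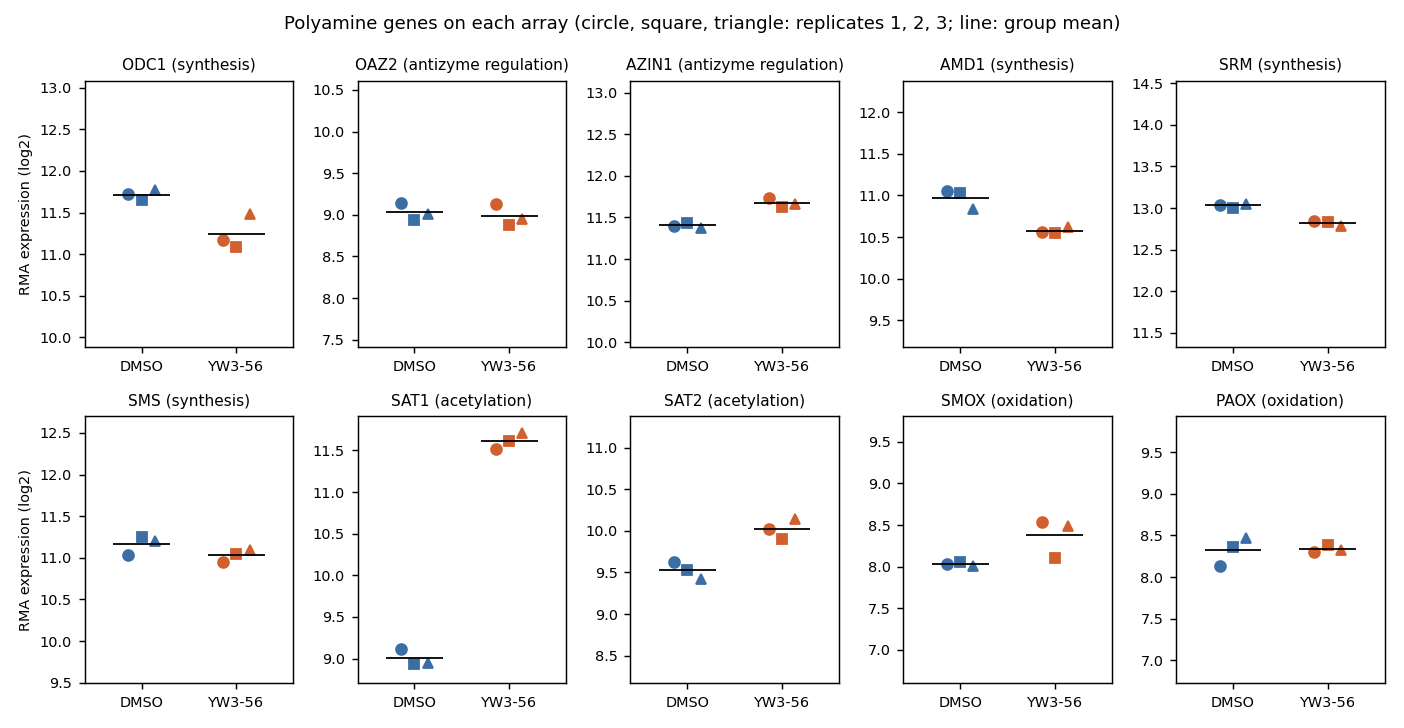
RMA expression (log2) of the 10 polyamine genes on each of 6 arrays, in panels of equal height; symbols mark replicates 1 to 3 and lines the group means. SAT1 separates by 2.40 between the nearest arrays of both groups, and ODC1 and SMOX each have 1 treated array near the DMSO arrays.

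SAT1, spermidine/spermine acetyltransferase and the usual point of control in polyamine breakdown, was the gene the set was built around. Its log2 expression on probe set 8166469 was 9.12, 8.94 and 8.95 in the DMSO replicates and 11.51, 11.62 and 11.71 in the YW3-56 replicates. The treated arrays lay close together and stood far above the DMSO arrays, with 2.40 between the highest DMSO array and the lowest treated one. The means were 9.00 ± 0.10 (SD, n = 3) and 11.61 ± 0.10 (SD, n = 3), a difference of 2.61 ± 0.09 (SE), or 6.12-fold. It was the rise of rank 7 among 18417 genes. Differences within same-numbered pairs were 2.40, 2.68 and 2.76.

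SAT2 is related to SAT1 in sequence and is known to act on thialysine rather than mainly on polyamines. Its values were 9.62, 9.53 and 9.42 in DMSO and 10.03, 9.90 and 10.14 in YW3-56. All treated arrays were above all DMSO arrays, by a margin of 0.28. The difference of SAT2 was 0.50 ± 0.09 (SE), or 1.41-fold, and thus much smaller on this scale than that of SAT1. SAT1 and SAT2 stayed called as higher in each of the 15 alternative settings. These settings reuse the arrays on which the set was chosen, so this is a description and not further support.

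The sequence before the start of SAT1 is shown with those of SAT2, of ODC1 as the first synthesis enzyme, and of SRM, so that the acetyltransferases that were higher can be read beside synthesis genes that were lower or not called. These are the 250 bases before the first start listed in RefSeq (GRCh38.p14), written 5′ to 3′ on the strand of the gene. Capitals mark a match to 1 of 8 motifs searched on both strands. SAT1 lies at chrX:23782923-23783172 on the plus strand, SAT2 at chr17:7627877-7628126 on the minus strand, ODC1 at chr2:10448328-10448577 on the minus strand and SRM at chr1:11060019-11060268 on the minus strand.
SAT1: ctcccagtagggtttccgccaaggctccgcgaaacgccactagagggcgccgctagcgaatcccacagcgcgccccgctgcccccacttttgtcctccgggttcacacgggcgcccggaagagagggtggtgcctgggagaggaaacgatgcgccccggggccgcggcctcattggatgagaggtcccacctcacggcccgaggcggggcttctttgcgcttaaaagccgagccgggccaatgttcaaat
SAT2: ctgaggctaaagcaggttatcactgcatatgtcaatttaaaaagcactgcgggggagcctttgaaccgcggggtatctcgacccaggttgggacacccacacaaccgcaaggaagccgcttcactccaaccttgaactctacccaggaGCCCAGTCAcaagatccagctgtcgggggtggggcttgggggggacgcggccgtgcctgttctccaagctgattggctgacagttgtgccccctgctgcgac
ODC1: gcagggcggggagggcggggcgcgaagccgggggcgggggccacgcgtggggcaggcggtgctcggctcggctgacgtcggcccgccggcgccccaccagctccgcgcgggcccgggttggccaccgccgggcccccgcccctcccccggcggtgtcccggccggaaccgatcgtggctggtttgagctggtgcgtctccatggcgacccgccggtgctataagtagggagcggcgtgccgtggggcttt
SRM: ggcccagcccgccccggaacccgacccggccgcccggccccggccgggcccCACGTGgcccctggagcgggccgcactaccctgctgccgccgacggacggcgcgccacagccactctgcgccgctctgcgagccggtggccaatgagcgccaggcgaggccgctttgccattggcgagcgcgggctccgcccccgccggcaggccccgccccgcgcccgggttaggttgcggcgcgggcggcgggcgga

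The motifs were the polyamine-responsive element (TATGACTAA), the core of the antioxidant response element (TGACNNNGC), the cAMP response element (TGACGTCA), the C/EBP-ATF response element (TGATGNAAN), the endoplasmic reticulum stress response element (CCAAT and CCACG with 9 free bases between them), a pair of heat shock units (GAANNTTC), the E-box (CACGTG) and the TATA box (TATAAA). The TATGACTAA and TGACGTCA motifs both hold TGAC, the start of the antioxidant core, so matches could overlap. Promoters were listed for 7 of the 10 members; AZIN1, SMOX and PAOX were not among them. In the first listed windows the antioxidant core matched in SAT2, 102 to 94 bases before the start on the opposite strand, and the E-box matched in SRM, 199 to 194 bases before the start. The window of SAT1 held none of the 8 motifs as spelled. Bases outside these 250 were not searched, so a motif elsewhere in or near the gene would have been missed. A second listed start of ODC1 had an E-box 29 to 24 bases before it.

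The antioxidant core is common, in 11.0% of 27303 windows of the same length, and the E-box occurred in 6.49%. The TATA box occurred in 11.1%, the heat shock pair in 5.85%, the C/EBP-ATF element in 3.18% and the cAMP element in 1.77%. The polyamine-responsive element occurred in 0.0842% and the endoplasmic reticulum stress element in 0.0806%. The 4 windows shown differed in base composition, with G and C at 66.4% in SAT1, 58.8% in SAT2, 78.8% in ODC1 and 82.0% in SRM, against a median of 58.0% over all windows. SAT1 and SMS are both on chromosome X, and the other 8 members lie on 8 different chromosomes.

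Neither oxidase was called. SMOX, spermine oxidase, read 8.03, 8.06 and 8.01 in DMSO and 8.54, 8.11 and 8.49 in YW3-56. Replicates 1 and 3 of the treated group stood clearly above DMSO, whereas replicate 2 was 0.05 above its nearest DMSO array. The difference of SMOX was 0.34 ± 0.12 (SE) and it was not called; without YW3-56 replicate 2 it was 0.48 and called, as it was in 3 of the 15 alternatives in all.

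PAOX, the oxidase that acts on acetylated polyamines, read 8.13, 8.36 and 8.47 in DMSO and 8.30, 8.39 and 8.33 in YW3-56. The treated arrays all lay inside the DMSO range. Its difference was 0.02 ± 0.10 (SE), and it ran from -0.08 to 0.10 over the alternative settings.

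The 4 synthesis enzymes had differences below 0, as had 11432 of 18417 genes. Of the 4 enzymes 2 were called, against 21.4% of all genes. ODC1, which makes putrescine, read 11.72, 11.65 and 11.77 in DMSO and 11.17, 11.09 and 11.48 in YW3-56. YW3-56 replicate 3 stood apart from the other treated arrays, yet stayed 0.16 below the lowest DMSO array. The difference was -0.47 ± 0.11 (SE), a 1.38-fold lower level. The ODC1 call was lost without DMSO replicate 3 and without YW3-56 replicate 1 or 2, with differences of -0.58 to -0.39 when single arrays were left out, and in a per-gene model without shared variance.

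AMD1, S-adenosylmethionine decarboxylase, read 11.05, 11.03 and 10.83 in DMSO and 10.56, 10.55 and 10.62 in YW3-56. The groups were apart by 0.22, and the DMSO arrays spread more than the treated ones. Its difference was -0.40 ± 0.08 (SE), a 1.32-fold lower level, and without DMSO replicate 2 it was not called, with leave-one-out differences from -0.47 to -0.36.

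SRM, spermidine synthase, was tight within groups. It read 13.04, 13.00 and 13.05 in DMSO and 12.84, 12.83 and 12.79 in YW3-56. All treated arrays were below all DMSO arrays, by 0.16. The difference of -0.21 ± 0.07 (SE) was not called, but 5 of the 15 alternatives called it as lower, among them the trended and robust prior and the array weights.

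SMS, spermine synthase, read 11.04, 11.25 and 11.21 in DMSO and 10.95, 11.05 and 11.10 in YW3-56. The groups overlapped through DMSO replicate 1, and the difference of -0.13 ± 0.08 (SE) was not called in any setting.

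Of the antizyme regulators, AZIN1 was called and OAZ2 was not. AZIN1, antizyme inhibitor 1, read 11.40, 11.44 and 11.38 in DMSO and 11.73, 11.63 and 11.66 in YW3-56. All treated arrays were higher, by a margin of 0.19, and the difference was 0.27 ± 0.07 (SE), or 1.21-fold. The call of AZIN1 was lost with median centring of each array and when any array other than DMSO replicate 1 was left out, where its difference was 0.24 to 0.29.

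OAZ2, an antizyme, read 9.14, 8.94 and 9.01 in DMSO and 9.13, 8.88 and 8.94 in YW3-56. Its groups overlapped along nearly their whole range, and same-numbered arrays sat close together. The difference was -0.04 ± 0.09 (SE).

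**Figure D2:**
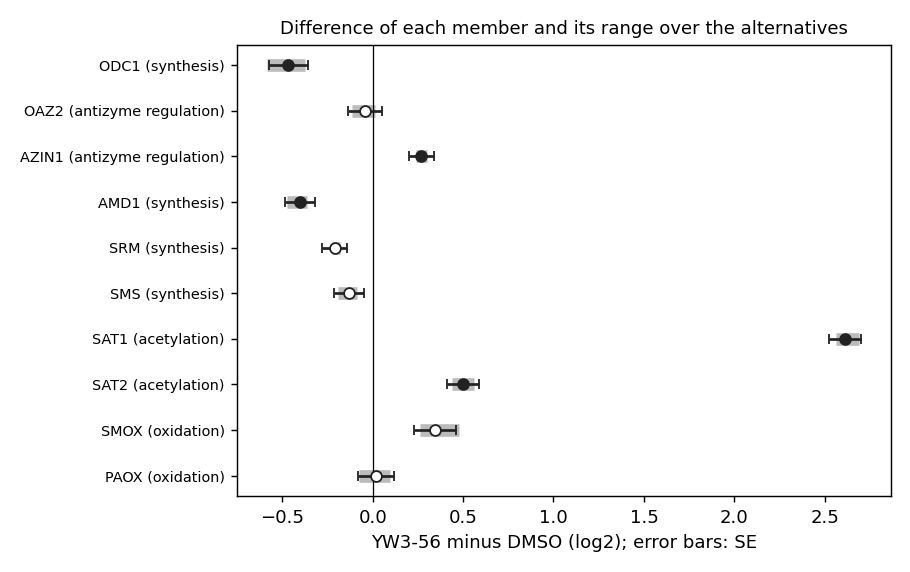
Difference between YW3-56 and DMSO (log2) for each member, with SE as error bars, filled points for called genes and grey bars for the range over 15 alternative settings. SAT1 lies at 2.61, SAT2 at 0.50, and the synthesis enzymes between -0.47 and -0.13.

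In order of the difference, the members ran from SAT1 through SAT2 (0.50), SMOX (0.34), AZIN1 (0.27), PAOX (0.02), OAZ2 (-0.04), SMS (-0.13), SRM (-0.21) and AMD1 (-0.40) to ODC1 (-0.47). SAT1 exceeded the next member, SAT2, by far more than either SE. From SAT2 down to ODC1, neighbours in the order were no further apart than the sum of their SEs, except at the steps from AZIN1 to PAOX and from SRM to AMD1. SAT2 was the rise of rank 906 among all genes, AZIN1 of rank 2062, and ODC1 and AMD1 the falls of rank 945 and 1286.

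**Figure D3:**
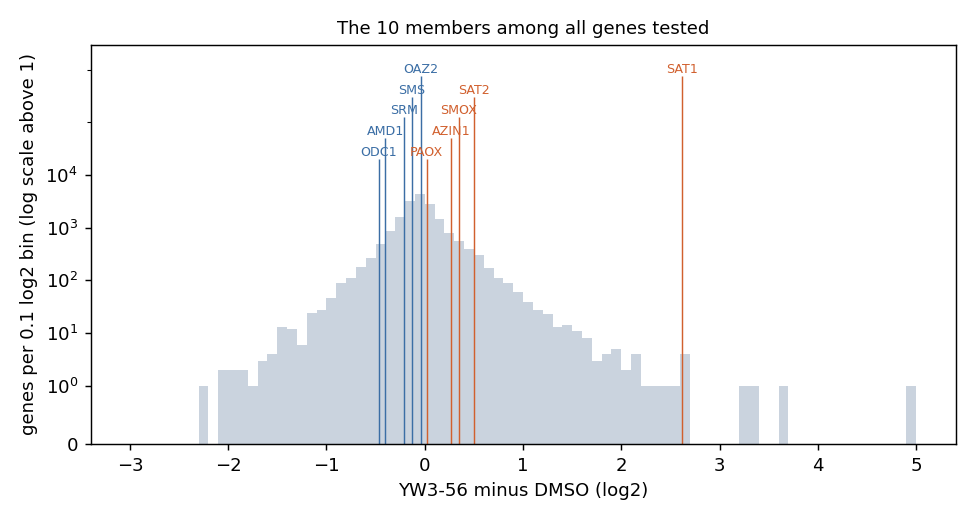
Number of genes per bin of 0.1 log2 units of the difference between YW3-56 and DMSO, on a count axis that is logarithmic above 1, with lines at the 10 members. SAT1, at 2.61, is in the thin right tail, and the other members lie between -0.47 and 0.50.

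The genes outside the set whose arrays were most like SAT1 were CLU, ZFAND2A, DNAJB4, GABARAPL1 and SESN2. Likeness was the Euclidean distance over the 6 log2 values after each gene's DMSO mean was subtracted, and a small distance mostly means a rise of like size. The distances were 0.13 for CLU, the secreted chaperone clusterin, 0.23 for ZFAND2A, 0.38 for DNAJB4, 0.58 for GABARAPL1 and 0.59 for SESN2. CLU read 8.78, 8.77 and 8.64 in DMSO and 11.23, 11.36 and 11.43 in YW3-56, without overlap and with a difference of 2.61, as SAT1.

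The surroundings of the pathway were taken from 6 lists of 35 genes grouped by function. These lists were chosen with earlier results of the same data known, so the p-values of their genes are not independent support. Of 33 measured genes, 4 were higher, 10 were lower and 19 were not called in YW3-56 (limma, adjusted p under 0.05 over all genes). That is set against 9.84% of all genes called higher and 11.5% called lower. The median difference over these 33 genes was -0.09, against -0.05 over all genes. Of the 14 calls, 6 held in every alternative that tested the gene: SLC18B1, SLC3A2, SLC7A2, SLC25A15, MAT2A and APIP. The number called fell to 9 without DMSO replicate 2 and to 7 and 8 without YW3-56 replicates 2 and 3.

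**Figure D4:**
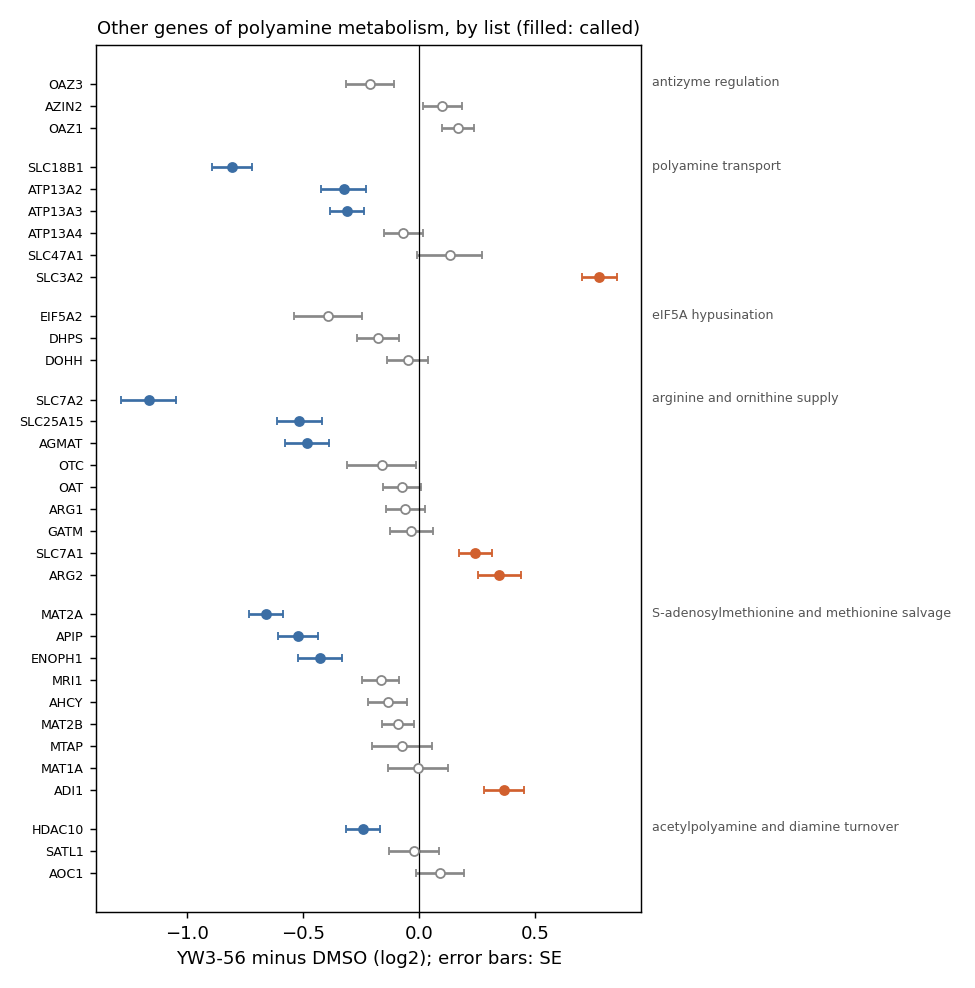
Difference between YW3-56 and DMSO (log2) with SE for 33 further genes of polyamine metabolism, in 6 lists; filled points are called genes, orange higher and blue lower. SLC7A2 (-1.16) and SLC18B1 (-0.80) lie furthest to the left and SLC3A2 (0.77) furthest to the right.

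Of 6 measured transport genes, 1 was higher and 3 were lower, against 9.84% and 11.5% of all genes. SLC18B1, a vesicular polyamine transporter, read 8.51, 8.41 and 8.53 in DMSO and 7.54, 7.72 and 7.78 in YW3-56. The groups were far apart, with a fall of -0.80 ± 0.09 (SE, limma adjusted p = 6.5e-04). SLC3A2, the heavy chain of several amino acid exchangers, which has also been linked to polyamine export, rose from 12.66 ± 0.08 to 13.43 ± 0.02 (SD, n = 3 each), by 0.77 (limma adjusted p = 4.2e-04). The P-type ATPases ATP13A2, a lysosomal polyamine exporter, and ATP13A3, a polyamine importer, were lower by smaller amounts, -0.33 ± 0.10 and -0.31 ± 0.07 (limma adjusted p = 0.0472 and 0.0178). The ATP13A2 call was lost in 7 of 15 alternatives (adjusted p 0.0748 to 0.164), including without any single DMSO array and without YW3-56 replicate 2 or 3. That of ATP13A3 was lost with median centring and without any single YW3-56 array (0.0599 to 0.0679).

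Ornithine for ODC1 comes from arginine. Here 2 of 9 genes of this supply were higher and 3 lower, against 9.84% and 11.5% of all genes. SLC7A2, a cationic amino acid transporter, showed the largest difference of the 33 genes. It read 9.20, 8.92 and 8.83 in DMSO and 7.65, 7.87 and 7.93 in YW3-56. Every treated array was far below every DMSO array, and the fall was -1.16 ± 0.12 (SE, limma adjusted p = 5.2e-04), or 2.24-fold. Its relative SLC7A1 was higher instead, by 0.24 ± 0.07 (adjusted p = 0.045). The mitochondrial ornithine carrier SLC25A15 was lower, at -0.52 ± 0.10 (limma adjusted p = 0.0068), and AGMAT, named for the hydrolysis of agmatine to putrescine, was lower at -0.48 ± 0.09 (adjusted p = 0.0083).

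ARG2, the mitochondrial arginase that makes ornithine, was higher by 0.34 ± 0.09 (limma adjusted p = 0.03). Its call was lost without DMSO replicate 2 and without YW3-56 replicate 2 or 3, and in the per-gene model, at adjusted p from 0.0911 to 0.127. SLC7A1 lost its call with median centring and without any array but DMSO replicate 3 (adjusted p 0.055 to 0.162), and AGMAT in the per-gene model alone (0.0507). ARG1, OTC, OAT and GATM were not called, with differences from -0.16 to -0.03. Of these, ARG1, OTC and GATM were below the array medians in both groups, with group means from 4.77 to 6.22.

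The supply and recycling of S-adenosylmethionine, from which AMD1 makes its product, had 1 of 9 genes higher and 3 lower. The shares over all genes were 9.84% and 11.5%. MAT2A, which makes S-adenosylmethionine in most tissues, read 13.18, 13.16 and 13.03 in DMSO and 12.50, 12.43 and 12.45 in YW3-56. The groups did not overlap, and the fall was -0.66 ± 0.07 (SE, limma adjusted p = 7.5e-04), or 1.58-fold. Its regulatory partner MAT2B was not called, at -0.09 ± 0.07.

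The methionine salvage route takes up the methylthioadenosine that SRM and SMS release. APIP (-0.52 ± 0.09, limma adjusted p = 0.0042) and ENOPH1 (-0.43 ± 0.09, adjusted p = 0.014), enzymes of this route, were lower, while ADI1, which acts after them, was higher (0.37 ± 0.09, adjusted p = 0.018). ENOPH1 lost its call without YW3-56 replicate 1 or 2 and in the per-gene model (adjusted p 0.0511 to 0.0647). ADI1 lost it without DMSO replicate 2 and without YW3-56 replicate 2 or 3, and in the per-gene model (0.0502 to 0.0835). MTAP, the first enzyme of the route, was below the array medians in both groups, at 6.08 ± 0.22 and 6.01 ± 0.16 (SD, n = 3 each), and was not called.

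None of the 3 measured genes beside OAZ2 and AZIN1 in antizyme regulation was called. OAZ1, the main antizyme, read 13.28 ± 0.03 in DMSO and 13.45 ± 0.04 in YW3-56 (SD, n = 3 each) without overlap, a difference of 0.17 ± 0.07 (limma adjusted p = 0.139). It was called as higher in 3 of 15 alternatives, at an adjusted p down to 0.0070. OAZ3 and AZIN2 differed by -0.21 ± 0.10 and 0.10 ± 0.09. OAZ3 was below the array medians in both groups, with means of 6.61 in DMSO and 6.39 in YW3-56.

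Spermidine is also the donor for hypusine, a modified lysine of the translation factor eIF5A. EIF5A2, DHPS and DOHH were measured and none was called, with differences of -0.39 ± 0.15, -0.18 ± 0.09 and -0.05 ± 0.09. With replicate number as a block EIF5A2 was called as lower (limma adjusted p = 0.0222, against 0.0996 without the block). Of the 3 genes of acetylpolyamine and diamine turnover, HDAC10, which deacetylates N8-acetylspermidine, was lower by -0.24 ± 0.07 (limma adjusted p = 0.0483), a call lost in 8 of 15 alternatives, including each in which 1 array was left out (adjusted p 0.0533 to 0.201 over the 8). SATL1 and AOC1 were not called, at -0.02 ± 0.11 and 0.09 ± 0.10. Both were below the array medians, SATL1 at 5.56 in DMSO and 5.54 in YW3-56, and AOC1 at 7.13 and 7.22.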

How the data were processed

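Arrays of 6 MDA-MB-231 cultures, 3 with DMSO and 3 with YW3-56, were compared. The authors deposited log2 values of 33297 probe sets, made with RMA in affy per the submitters' processing notes (versions: not given in the sources used here). Because RMA equalises distributions, these values could not show a shift common to all transcripts. Arrays carry no read depth, and their number limits the precision.

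Probe sets with a single symbol in the platform annotation (19460) were kept and the brightest by mean of 6 arrays stood for its gene. The test was limma 3.58.1 in R 4.3.3, with lmFit and eBayes, two-sided, group as the only term and no filter, adjusted by Benjamini-Hochberg over 18417 genes. The labels do not say how biological replicates were separated, so p-values measure the spread between these arrays. The script was tested on simulated data. Deviations from group means correlated at 0.54, 0.37 and 0.10 (0.102) over genes between arrays numbered 1, 2 and 3, each above 0.1. Replicate number was therefore run as a block in an alternative, while the main fit had no such term. The labels number the replicates and state no pairing. YW3-56 replicate 2 correlated with DMSO replicate 3 at 0.42, more than with its own number, so these correlations do not settle whether arrays were paired.

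The members, the partner lists, the motifs and the tests were chosen with earlier results of these data known. Named were all members, every called partner gene, and the 5 genes closest to SAT1; some partner genes that were not called are named as well. Alternatives were 2 scalings, 2 filters on dim genes, the mean of probe sets, a trended and robust prior, array weights (gene-by-gene method, chosen after the default did not converge), a per-gene model, the replicate block and the omission of each array. EIF5A and SLC22A3 had no probe set with their symbol alone.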

Additional observations from a re-analysis of the deposited data

How the results depend on the processing

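Each comparison was recomputed under 15 alternatives, 6 of which left out 1 array. No called difference changed sign. The 2 filters, the mean of probe sets, the trended and robust prior, the per-gene model and the block could not move these differences. Each gene had 1 probe set and the groups were of equal size, so only the calls could change there. The difference of SAT1 ran from 2.56 to 2.67 with single arrays left out. In every alternative 8 of the 10 members kept the sign of their difference, the exceptions being OAZ2 and PAOX, which were not called. The number of members called was 3 to 5 with single arrays left out, and it was 3 without DMSO replicate 2, DMSO replicate 3 or YW3-56 replicate 1. It rose to 7 with array weights and with genes under the median left out. The number of partner genes called was 7 to 12 with single arrays left out. Over all genes the count was 2364 (without YW3-56 replicate 3) to 4689 (without DMSO replicate 1) with single arrays left out. It was 6079 with array weights, against 3933. The count rose without DMSO replicate 1, the array of lowest weight (0.331), and fell without any other single array. Fewer arrays leave fewer degrees of freedom, and the cause of the rise or the falls was not tested. With replicate number as a block, 5 members and 15 partner genes were called, and the block changed no call of those printed other than EIF5A2. Over all genes the block called 4776, against 3933 without it. Among members whose groups did not overlap, the smallest margins were 0.05 for SMOX and 0.16 for SRM and ODC1, against a typical SD between arrays (median over genes) of 0.12 in DMSO and 0.09 in YW3-56, so 3 arrays a group limit what can be said of changes of that size.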
